A study of Mus musculus with 10 samples.

Results

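The peroxins described here are 9 genes of peroxisome proliferation and import, taken from the deposited table by gene symbol. Pex11a and Pex11g act in division, Pex3, Pex16 and Pex19 in membrane biogenesis, and Pex5, Pex7, Pex13 and Pex14 in matrix import. All 9 were found among the 16874 genes of the table, and all 9 were among the 11242 genes that reached 0.5 FPKM, the fragments of a gene scaled to its transcript length and to the library total, in at least 5 of the 10 libraries. Every library was made from liver of male C57BL/6 mice in which Pparg, which encodes the nuclear receptor PPAR gamma, was knocked out in the liver, controls included. The controls were gavaged with 0.5% CMC and the treated mice with 2500 mg/kg bw of the plasticizer DEHP (a phthalate), with 5 libraries per group. Age, length of treatment and the promoter that drives the deletion do not stand in the labels, and livers with intact Pparg were not analysed here. The labels give 12 mice per group without naming the mouse or mice behind a library, so each p-value here measures only the spread of these libraries, which may be technical.

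Peroxisomes have no ribosomes and import their matrix enzymes, already folded, from the cytosol. PEX19 carries newly made membrane proteins to its docking factor PEX3, and PEX16 helps to bring PEX3 to the membrane. PEX5 and PEX7 are the receptors of enzymes that carry the targeting signals PTS1 and PTS2, and PEX13 and PEX14 form the dock where the loaded receptors meet the membrane. PEX11 proteins elongate the membrane before a peroxisome divides. Rodent liver is known for peroxisome proliferation under ligands of the nuclear receptor PPAR alpha, and Pex11a is a known target of that receptor in rodents.

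After DEHP, 2 of the 3 membrane biogenesis genes and 1 of the 2 division genes rose, and 0 of the 4 import genes were called. Pex16, Pex11a and Pex19 were higher, with means of 104 ± 12.5 against 72.5 ± 6.87, 64.8 ± 7.71 against 46.1 ± 5.62, and 37.3 ± 3.05 against 28.5 ± 1.88 FPKM (SD, n = 5 each, DEHP against CMC). At a limma adjusted p below 0.05, 3 of the 9 peroxins were thus higher and 0 lower, where 9.12% of all tested genes were higher and 2.4% lower. At an unadjusted exact permutation p below 0.05, 4 of the 9 passed, Pex11g in addition, beside 23.8% of all tested genes. After adjustment over all genes 0 of the 9 passed that test, whose smallest adjusted p was 0.0742. The median log2 fold change of the 9 was 0.20, and that of all tested genes was 0.06. Of the 9, 6 to 8 stood above their own mean over 10 libraries in each DEHP library, and 0 to 3 in each CMC library. This count was not made over all tested genes, and it restates the group differences above rather than adding to them.

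The start regions of 3 genes are shown because Pex11a and Pex16 were called higher and Pex11g lay closest to the threshold of those that were not. Each is a RefSeq window of GRCm38.p6 from 250 bases before to 50 bases after an annotated start, written 5′ to 3′ on the gene's strand. Capitals mark the hexamer AGGTCA, the core letters of many nuclear receptor sites, where either strand holds it. The windows lie at chr7:79743082-79743381 (minus strand), chr8:3467599-3467898 (minus strand) and chr2:92374426-92374725 (plus strand, the first of a pair of annotated starts).
Pex11a: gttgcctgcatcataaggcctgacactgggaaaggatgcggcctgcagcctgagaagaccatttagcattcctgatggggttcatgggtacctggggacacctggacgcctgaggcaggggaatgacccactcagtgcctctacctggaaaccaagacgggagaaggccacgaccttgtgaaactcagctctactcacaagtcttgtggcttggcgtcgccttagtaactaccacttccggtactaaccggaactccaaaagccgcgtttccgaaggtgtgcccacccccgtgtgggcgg
Pex11g: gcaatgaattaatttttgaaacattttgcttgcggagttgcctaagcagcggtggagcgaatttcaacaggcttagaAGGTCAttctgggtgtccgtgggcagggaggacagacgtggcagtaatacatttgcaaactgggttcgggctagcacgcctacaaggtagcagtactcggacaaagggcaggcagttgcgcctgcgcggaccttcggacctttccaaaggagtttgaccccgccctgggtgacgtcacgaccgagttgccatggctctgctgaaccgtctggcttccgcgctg
Pex16: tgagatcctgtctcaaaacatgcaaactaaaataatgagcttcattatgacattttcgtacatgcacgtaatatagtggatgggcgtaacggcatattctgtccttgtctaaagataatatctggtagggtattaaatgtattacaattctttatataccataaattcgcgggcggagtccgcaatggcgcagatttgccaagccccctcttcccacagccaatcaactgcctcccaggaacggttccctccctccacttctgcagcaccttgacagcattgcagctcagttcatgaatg
RefSeq windows matched 8 of the 9 genes, 11 windows in all, and Pex19, which was also called higher, had none. The hexamer AGGTCA, searched on both strands, was in 1 of the 11, that of Pex11g, with its first base 173 bases before the start, while 16.3% of all 32851 windows hold it. The repeat named DR1, that hexamer followed by any 1 base and the hexamer again, is the site type bound by PPAR receptors with RXR. DR1 overlaps the hexamer search by its build, and on both strands it was in 0 of the 11 with at most 2 of its 12 fixed bases different, against 3.86% of all windows. With at most 3 different bases it was in 1 of the 11, Pex11g again, as cggacaaagggca with its first base 76 bases before the start, against 24.6% of all windows. These matches describe letters in short windows and nothing farther away was read.

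Pex16, whose protein recruits PEX3 to the membrane, had the highest level of the 9 peroxins in both groups. It lies on chromosome 2 from 92374676 to 92381220 on the plus strand. CMC libraries 1 to 5 held 76.11, 64.42, 68.84, 82.22 and 70.97 FPKM, against 108.39, 92.41, 104.42, 91.36 and 121.77 FPKM for DEHP libraries 1 to 5. Every DEHP library lay above every CMC library, as for 3 of the 9 peroxins and 8.56% of all tested genes. None of the 9 had every DEHP library below every CMC library, against 2.14% of all tested genes. The log2 fold change of Pex16 was 0.51 (SE 0.09, limma adjusted p = 0.00296), and 6.25% of tested genes had a higher one. The call of Pex16 was kept in each fit that left out 1 library, with log2 fold changes of 0.45 to 0.56. Large2, on the other strand, lies 3590 bases to its left in RefSeq and overlaps it in GENCODE. It stood at 0.424 ± 0.245 in CMC and 0.718 ± 0.138 FPKM in DEHP libraries (SD, n = 5 each, limma adjusted p = 0.182).

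Pex11a, a membrane elongation factor that is induced by peroxisome proliferators in rodents, was second in level. It lies on chromosome 7 from 79735957 to 79743131 on the minus strand. FPKM values read 48.36, 48.11, 52.26, 37.35 and 44.5 for CMC libraries 1 to 5, while DEHP libraries 1 to 5 read 56.43, 61.65, 73.76, 60.11 and 72.27. The groups did not overlap, with CMC library 4 the lowest and DEHP library 3 the highest. Pex11a had a log2 fold change of 0.49 (SE 0.10, limma adjusted p = 0.00688), and leaving out 1 library at a time gave 0.42 to 0.54. Plin1, the perilipin gene of fat cells, is the nearest gene of the table to its left, 3053 bases away on the same strand. It was listed at 0 in 8 of the 10 libraries and at 0.16 FPKM in CMC library 5 and 0.08 FPKM in DEHP library 4. Wdr93 overlaps Pex11a on the other strand and stood at 0.332 ± 0.0983 in CMC and 0.576 ± 0.247 FPKM in DEHP libraries (SD, n = 5 each).

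Pex19, the cytosolic carrier of peroxisomal membrane proteins, was the third gene called. It lies on chromosome 1 from 172126755 to 172136497 on the plus strand. From library 1 to 5, controls measured 31.45, 27.05, 27.99, 29.13 and 26.88 FPKM, whereas DEHP livers measured 36.16, 35.07, 36.47, 36.1 and 42.66 FPKM. The groups did not overlap, 4 DEHP libraries lay close together, and DEHP library 5 stood above them. For Pex19 the log2 fold change was 0.38 (SE 0.08, limma adjusted p = 0.0066), and it was 0.33 without DEHP library 5 (adjusted p = 0.0117). With median-of-ratios scaling it was 0.31 (adjusted p = 0.0528) and with quantile normalization 0.26 (adjusted p = 0.0605), so that neither kept the call of Pex19, while both kept those of Pex11a and Pex16. The flanking genes Copa and Dcaf8 had log2 fold changes of 0.04 (limma adjusted p = 0.798) and 0.20 (adjusted p = 0.136).

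**Figure D1:**
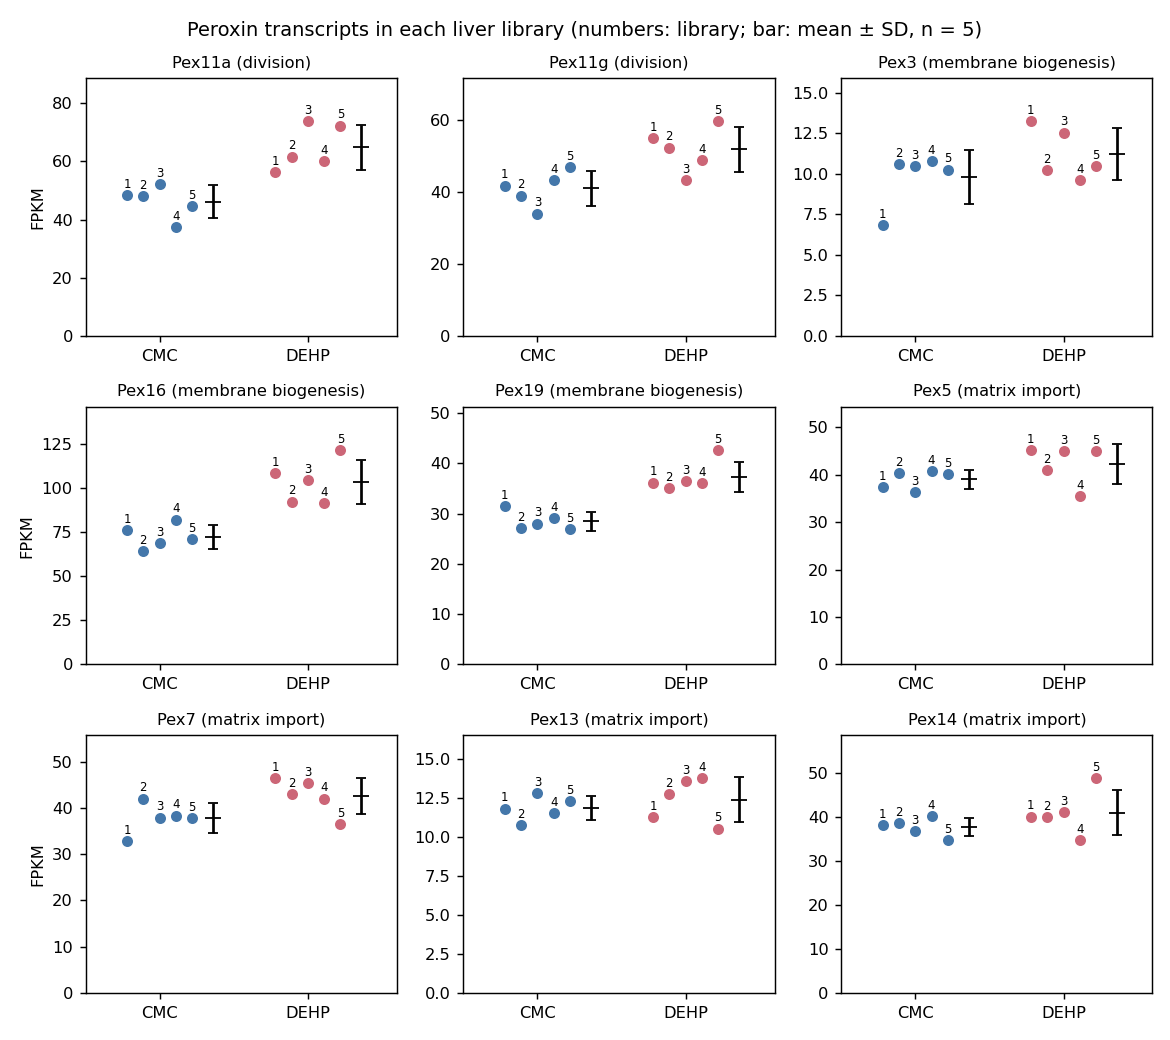
FPKM of the 9 peroxins in each liver library, with CMC and DEHP on the x axis, library numbers at the points, and bars for the mean ± SD of 5 libraries. The groups are apart for Pex11a, Pex16 and Pex19 and overlap for the other 6 genes.

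Pex11g, the other division gene among the 9, had a DEHP mean of 51.7 ± 6.18 and a CMC mean of 40.9 ± 4.87 FPKM (SD, n = 5 each). It lies on chromosome 8 from 3457105 to 3467648 on the minus strand. CMC libraries 1 to 5 held 41.67, 38.91, 33.92, 43.29 and 46.88 FPKM, against 54.82, 52.25, 43.12, 48.84 and 59.5 FPKM for DEHP libraries 1 to 5. In 4 of the 5 DEHP libraries it was above every CMC library, and DEHP library 3 overlapped. The log2 fold change of Pex11g was 0.33 (SE 0.10, limma adjusted p = 0.0507), just outside the threshold. It passed without CMC library 5 (adjusted p = 0.0363) or DEHP library 3 (adjusted p = 0.0281), and over the fits that each left out 1 library its adjusted p ran from 0.0281 to 0.121. With median-of-ratios scaling the value for Pex11g was 0.26 (adjusted p = 0.184), with quantile normalization 0.20 (adjusted p = 0.259), and with a clock gene component as a covariate 0.17 (adjusted p = 0.335). That component read -3.93, -2.60, -4.38, 0.85 and 2.72 in CMC libraries 1 to 5. In DEHP libraries 1 to 5 it read 1.37, 3.25, -1.47, 1.02 and 3.16. It thus partly followed the groups, and that fit cannot fully separate it from the treatment. Arhgef18, 504 bases to the left of Pex11g, had a log2 fold change of -0.24 (limma adjusted p = 0.317).

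The division pair was compared directly as a ratio of FPKM, where this and each later ratio is given as a mean with its SD over 5 libraries. The ratio of Pex11a to Pex11g was 1.15 ± 0.266 in CMC and 1.27 ± 0.257 in DEHP libraries, a log2 difference of 0.15 (two-sided exact permutation p = 0.46, adjusted p = 0.754 over the 5 pairs of peroxins compared). Leaving out 1 library at a time gave differences from 0.04, without DEHP library 3, to 0.27, without CMC library 3. It was 0.06 without CMC library 4 and 0.09 without CMC library 5. The change of Pex11a was thus not told apart from that of Pex11g, although only Pex11a was called.

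Pex3, the membrane anchor of the PEX19 carrier, was the least abundant of the 9. It lies on chromosome 10 from 13523842 to 13553142 on the minus strand. FPKM values read 6.82, 10.59, 10.46, 10.8 and 10.25 for CMC libraries 1 to 5, while DEHP libraries 1 to 5 read 13.23, 10.23, 12.54, 9.59 and 10.46. The groups overlapped, and CMC library 1 lay below all other libraries. Pex3 had a log2 fold change of 0.20 (95% interval -0.09 to 0.48, limma adjusted p = 0.406), which was 0.08 without CMC library 1 (adjusted p = 0.738). Adat2, a gene that overlaps Pex3 on the other strand, was lower after DEHP, at 1.20 ± 0.326 against 2.08 ± 0.482 FPKM (limma log2 fold change -0.60, adjusted p = 0.0423). Aig1, 93912 bases to the right of Pex3, was higher, at 13.3 ± 2.42 against 9.06 ± 1.83 FPKM (limma log2 fold change 0.54, adjusted p = 0.0331). The sources used here do not state that reads were counted by strand, and reads of overlapping genes then cannot be told apart. The ratio of Pex3 to Pex19 was 0.347 ± 0.0731 in CMC and 0.302 ± 0.0512 in DEHP libraries, with a log2 difference of -0.19 (exact permutation p = 0.349, adjusted p = 0.754 over the 5 pairs). It was -0.34 without CMC library 1 (exact permutation p = 0.0397, adjusted p = 0.139) and -0.12 without DEHP library 5.

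None of the 4 matrix import genes was called, where 11.5% of all tested genes were. Pex5, the PTS1 receptor, lies on chromosome 6 from 124396816 to 124415944 and, like the other 3, on the minus strand. From library 1 to 5, controls measured 37.46, 40.34, 36.44, 40.76 and 40.12 FPKM, whereas DEHP livers measured 45.28, 40.92, 45.08, 35.57 and 45.05 FPKM. In 4 of the 5 DEHP libraries Pex5 was above every CMC library, and DEHP library 4 was the lowest of all 10. The log2 fold change of Pex5 was 0.11 (95% interval -0.07 to 0.29, limma adjusted p = 0.437), and without DEHP library 4 it was 0.17 (adjusted p = 0.185). Clstn3, 14812 bases to its right, was higher after DEHP, at 5.52 ± 0.799 against 1.54 ± 0.562 FPKM (limma log2 fold change 1.61, adjusted p = 0.000182).

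Pex7, the PTS2 receptor, lies on chromosome 10 from 19860090 to 19907674. CMC libraries 1 to 5 held 32.83, 42.03, 37.93, 38.34 and 37.83 FPKM, against 46.43, 42.96, 45.4, 42.03 and 36.5 FPKM for DEHP libraries 1 to 5. The first 3 DEHP libraries lay above the CMC range, DEHP library 4 tied with its upper end and DEHP library 5 lay within it. Pex7 had a log2 fold change of 0.17 (95% interval -0.02 to 0.36, limma adjusted p = 0.239). Without CMC library 2 and DEHP library 5 together it was 0.27 (adjusted p = 0.0499). These were the highest CMC and the lowest DEHP library for Pex7, so leaving them out had to raise its change. The ratio of Pex5 to Pex7 was 1.04 ± 0.0772 in CMC and 1.00 ± 0.143 in DEHP libraries, a log2 difference of -0.06 (exact permutation p = 0.603, adjusted p = 0.754 over the 5 pairs). Leaving out 1 library at a time gave -0.14, without DEHP library 5, to -0.0024, without DEHP library 4.

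Pex13 and Pex14, the docking pair, overlapped between the groups. Pex13, on chromosome 11 from 23646843 to 23665883, ranged from 10.75 to 12.79 FPKM with a median of 11.81 in CMC and from 10.54 to 13.76 FPKM with a median of 12.77 in DEHP libraries. Its log2 fold change was 0.06 (95% interval -0.15 to 0.27, limma adjusted p = 0.776), and leaving out 1 library at a time gave 0.02, without DEHP library 4, to 0.11, without DEHP library 5. Pex14, on chromosome 4 from 148960535 to 149099843, ranged from 34.86 to 40.27 FPKM with a median of 38.28 in CMC and from 34.72 to 48.88 FPKM with a median of 40.17 in DEHP libraries. Its log2 fold change was 0.11 (95% interval -0.08 to 0.30, limma adjusted p = 0.484), and it was 0.05 without DEHP library 5 and 0.17 without DEHP library 4. Pus10, which overlaps Pex13 on the other strand, stood at 4.13 ± 0.748 in CMC and 4.10 ± 0.964 FPKM in DEHP libraries. With quantile normalization the sign of Pex5, Pex13 and Pex14 turned, at -0.01, -0.03 and -0.03, and with median-of-ratios scaling that of Pex13 turned, at -0.02. The ratio of Pex13 to Pex14 was 0.315 ± 0.0347 in CMC and 0.308 ± 0.0665 in DEHP libraries, a log2 difference of -0.05 (exact permutation p = 0.77, adjusted p = 0.77).

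**Figure D2:**
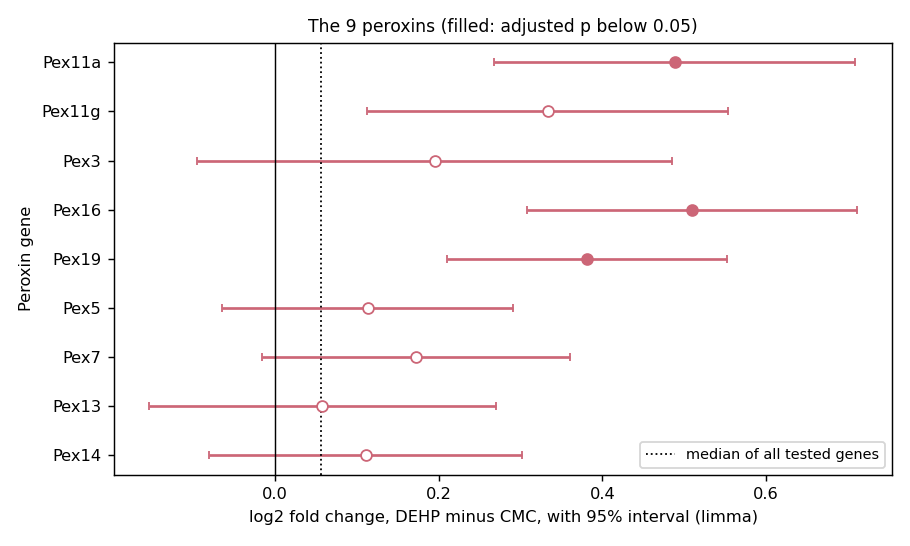
Log2 fold change of DEHP minus CMC (x axis) with its 95% interval for the 9 peroxins (y axis), filled where the adjusted p is below 0.05. Pex11a, Pex16 and Pex19 are filled, and the dotted line is the median of all tested genes at 0.06.

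In FPKM, which allows for transcript length, the 9 genes spanned from 72.5 for Pex16 to 9.78 for Pex3 in CMC means. Pex11a, Pex11g, Pex5, Pex7 and Pex14 followed Pex16 at 46.1, 40.9, 39.0, 37.8 and 37.8 FPKM, and each overlapped its neighbour in that order. Pex19 at 28.5 and Pex13 at 11.8 FPKM came next. The CMC ranges of Pex16 and Pex11a, of Pex14 and Pex19, and of Pex19 and Pex13 did not overlap, while those of Pex13 and Pex3 did. In DEHP means the order was the same except that Pex7 stood above Pex5.

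DEHP library 5 was at opposite ends of its group for different peroxins. It was the highest DEHP library for Pex11g, Pex16, Pex19 and Pex14 and the lowest for Pex7 and Pex13. DEHP library 4 was the lowest of its group for Pex3, Pex16, Pex5 and Pex14 and the highest for Pex13. Likewise, CMC library 4 was the highest of its group for Pex3, Pex16, Pex5 and Pex14 and the lowest for Pex11a. Without CMC library 2 and DEHP library 5 together, 4 of the 9 genes were higher, where 948 of all 11242 tested genes were higher and 244 lower. The added gene was Pex7 (limma adjusted p = 0.0499), for which these were the highest CMC and the lowest DEHP library. Its gain thus followed from which libraries were left out. Pex11g stood at a limma adjusted p of 0.153. The median log2 fold change of the 9 was then 0.27 beside 0.09 for all tested genes. Within a group the coefficient of variation of the 9 ran from 4.97% for Pex5 to 17.1% for Pex3 in CMC libraries and from 8.17% for Pex19 to 14.1% for Pex3 in DEHP libraries.

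The genes most like each peroxin over the 10 libraries are named by Pearson's r of log2(FPKM + 0.5), as a description of libraries that share the treatment difference. For Pex16 they included Mgll, the monoglyceride lipase, and Pdzrn3, with r of 0.973 and 0.967. For Pex11a they were Pnkd, Wdr18 and Trafd1, with r of 0.963, 0.962 and 0.955. For Pex19 they were Acsf3, a mitochondrial acyl-CoA synthetase, Eri3 and Abhd17a, with r of 0.984, 0.983 and 0.976. For Pex11g they were Gle1, Slc41a3 and Lad1 (r of 0.948, 0.931 and 0.931), for Pex3 Tprkb, Dntt and Add3 (0.907, 0.901 and 0.895), and for Pex14 Bace1, Grb2 and Eif5a (0.948, 0.927 and 0.920). Pex5 was most like Ube4b, Eif1ax and Faah (r of 0.948, 0.897 and 0.896), Pex7 most like Acp1, Btbd1 and Slc38a4 (0.978, 0.942 and 0.937), and Pex13 most like Yars2, Higd1a and B3gnt2 (0.919, 0.896 and 0.890). No peroxin was among the 3 genes most like any of the 9.

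Of the other peroxins, 0 of 7 tested were called in either direction by limma, against 11.5% of all tested genes. At that share, 0 calls in so few genes says little. At an unadjusted exact permutation p below 0.05, 1 passed, a share below the 23.8% of all tested genes. That 1 was Pex6, an ATPase that pulls the PTS1 receptor back out of the membrane, which stood at 39.1 ± 2.46 in CMC and 44.2 ± 3.24 FPKM in DEHP libraries (log2 fold change 0.17, limma adjusted p = 0.181). Pex26, its anchor at the membrane, had a log2 fold change of 0.09 (limma adjusted p = 0.769). The ubiquitin ligase genes Pex2 and Pex10 stood at -0.04 and -0.21 (limma adjusted p = 0.868 and 0.533). Pex5l, a Pex5 relative of nerve cells, was listed at 0 in 8 of 10 libraries and was not tested. The machinery that peroxisomes share with mitochondria for division had 0 of 5 tested genes called, beside the same 11.5%. The dynamin gene Dnm1l stood at -0.03 and its receptor genes Fis1 and Mff at 0.05 and 0.19 (limma adjusted p = 0.922, 0.828 and 0.272).

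Genes of the enzymes that the import receptors carry had a wider range of fold changes. The counts of called genes in each list below stand beside 9.12% of all tested genes higher and 2.4% lower. Of those with a PTS1, 20 of 36 tested were higher and 1 lower, with a median log2 fold change of 0.36 and values from -0.43 to 4.21. Ehhadh, the bifunctional enzyme of peroxisomal beta-oxidation, rose from 84.5 ± 20.9 to 1606 ± 497 FPKM. Ech1, an isomerase of unsaturated acyl-CoA, rose from 268 ± 22.7 to 622 ± 79.8 FPKM. The lower gene was Pipox, which breaks down pipecolic acid and fell from 133 ± 9.10 to 99.3 ± 8.64 FPKM. Of those with a PTS2, 2 of 4 were higher, the thiolase genes Acaa1a and Acaa1b, which are close copies of each other, so that the split of reads between them is uncertain. Phyh, of alpha-oxidation, stood at 1352 ± 62.6 and 1490 ± 111 FPKM (log2 fold change 0.14, limma adjusted p = 0.239). Among peroxisomal membrane proteins 3 of 14 were higher and 1 lower, with the acyl-CoA transporter gene Abcd3 rising from 129 ± 7.39 to 224 ± 35.7 FPKM and Pxmp4 falling from 98.2 ± 16.3 to 77.0 ± 2.90 FPKM. Among nuclear receptors and coactivators 2 of 7 were higher, Pparg itself and Rxrb. Among clock genes 0 of 16 were called, with log2 fold changes from -0.53 to 2.37. Among genes of receptor turnover and pexophagy 1 of 7 was higher, a count that says little beside 9.12% of all tested genes. It was Trim37, whose protein ubiquitinates PEX5, with 1.87 ± 0.502 in CMC and 2.89 ± 0.381 FPKM in DEHP libraries.

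**Figure D3:**
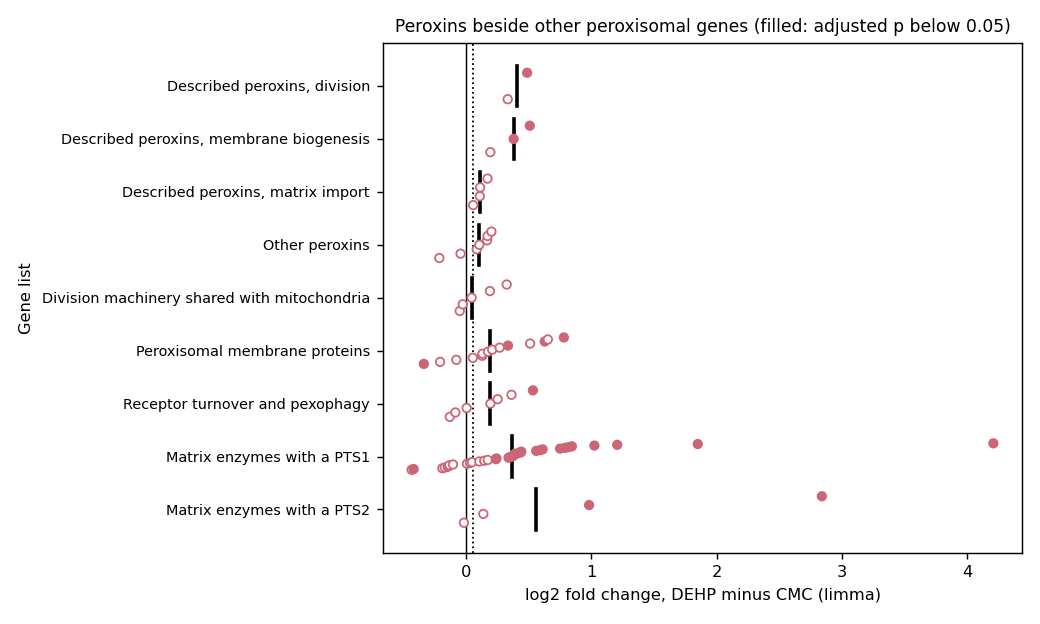
Log2 fold change of DEHP minus CMC (x axis) of every tested gene of each list (y axis), filled where the adjusted p is below 0.05, with a black bar at each list's median and a dotted line at the median of all tested genes. The 9 peroxins lie between 0.06 and 0.51, while the PTS1 enzymes reach 4.21.

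Set against the receptors, cargo transcripts were higher after DEHP. The summed FPKM of the 37 PTS1 enzyme genes in the table per FPKM of Pex5 was 199, 197, 227, 196 and 198 in CMC libraries 1 to 5 and 251, 277, 275, 293 and 269 in DEHP libraries 1 to 5. The summed FPKM of the 4 PTS2 enzyme genes per FPKM of Pex7 was 58.5, 47.0, 55.5, 54.8 and 53.4 in CMC libraries 1 to 5 and 117, 111, 142, 118 and 187 in DEHP libraries 1 to 5. The groups did not overlap in either ratio. DEHP library 5 had the highest PTS2 ratio, with both the lowest Pex7 and the highest PTS2 sum of its group (6842 FPKM). Such sums weigh the most abundant enzymes most and are given as a description with no test.

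**Figure D4:**
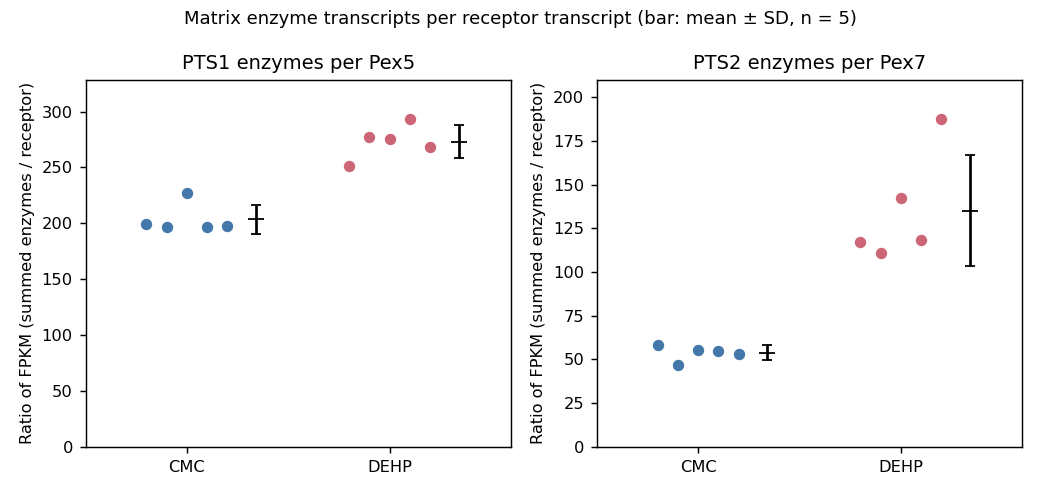
Summed FPKM of enzyme genes divided by the FPKM of their receptor gene (y axis) in CMC and DEHP libraries, with points for libraries and bars for the mean ± SD of 5. The PTS1 ratio averages 203 and 273 and the PTS2 ratio 53.8 and 135 in CMC and DEHP libraries.

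Over the whole series, 1025 genes were higher and 270 lower after DEHP, and with median-of-ratios scaling 639 and 445, with quantile normalization 611 and 546. Pparg, the targeted gene, was listed at 2.4, 4.56, 4.14, 2.72 and 5.9 FPKM for CMC libraries 1 to 5, while DEHP libraries 1 to 5 had 7.81, 5.5, 9.4, 7.79 and 7.04 FPKM. That value covers all exons and checks nothing about the deleted part. Of 5 hepatocyte markers 3 were lower after DEHP, with a summed level of 50863 to 67308 FPKM in CMC and 36404 to 42703 FPKM in DEHP libraries. FPKM is a share of a total, and the scalings above put the median of all tested genes at -0.01 and -0.02. Rescaling without the 10 most abundant genes put it at 0.04. Pex16, Pex11a and Pex19 then kept their calls, at log2 fold changes of 0.49, 0.47 and 0.36. Beyond these settings, the part of that fall of the hepatocyte markers in the peroxin results was not tested. The summed markers of Kupffer cells overlapped at 76.7 to 108 and 94.4 to 117 FPKM, as did those of endothelial cells, stellate cells, cholangiocytes, lymphocytes and neutrophils, and 0 tested markers of these types were called. The 3 adipocyte markers were too low to be tested and summed to at most 1.15 in CMC and 2.41 FPKM in DEHP libraries. In bulk tissue, fewer cells of a type and less RNA per cell cannot be told apart. Total depth is unknown from FPKM, and read steps among low values gave relative depths of 0.979 to 1.03, where pairs of libraries disagreed by up to 0.0322 on the log2 scale.

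**Figure D5:**
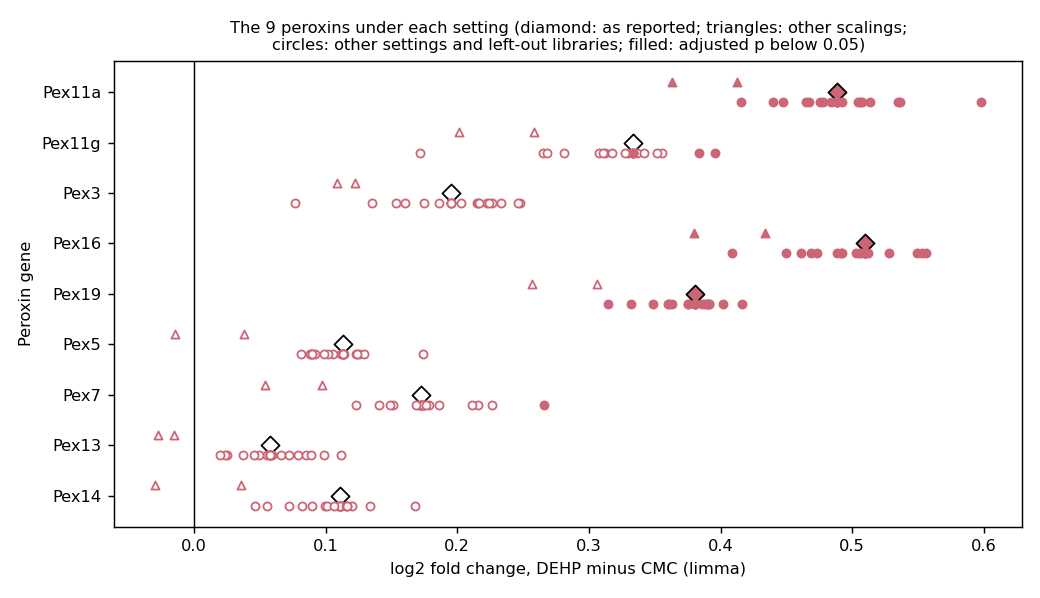
Log2 fold change of DEHP minus CMC (x axis) of the 9 peroxins (y axis) as reported (diamonds), with other scalings (triangles) and with the other settings and left-out libraries (circles), filled where the adjusted p is below 0.05. Pex11a and Pex16 are filled throughout these limma fits, and Pex19 is open with both scalings. Pex11g is above 0 throughout and filled in some fits, and Pex7 is filled only without CMC library 2 and DEHP library 5. Pex5, Pex13 and Pex14 fall below 0 with quantile normalization, and Pex13 also with median-of-ratios scaling.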

How the data were processed

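Liver RNA libraries, 5 per group, were made with an Illumina TruSeq kit per the labels' protocols. The authors deposited 1 FPKM value per gene and library, per the file headers. Per the submitters' processing notes, Cuffdiff was among the tools and mm10 and GRCm38 among the builds, without versions. An aligner is not given in those sources. FPKM is relative to the library total, so a fall of abundant transcripts raises the rest, and it holds no counts, so no count model was used.

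Genes that reached 0.5 FPKM in 5 or more libraries were tested as log2(FPKM + 0.5) with limma 3.58.1 in R 4.3.3 (intensity trend, robust variance) and Benjamini-Hochberg adjustment over all 11242 tested genes, at a threshold of 0.05. Fold changes on that scale understate those of low genes. Pairs of peroxins were compared by two-sided exact permutation of 252 regroupings of the libraries, whose smallest p is 0.00794. Coordinates are RefSeq's for GRCm38.p6, and 16833 of 16874 gene IDs matched it. Named are the 9 peroxins, the other peroxins, up to 3 genes per list by smallest p beside further list members chosen after their values were seen, the 3 genes most like each peroxin, nearest or overlapping genes in the table, and Pparg. Some genes this rule names are not reported here. The members, lists and alternatives were chosen with earlier results of these data known. The limma step was tested on simulated data, with log2 changes larger than those of any of the 9 peroxins. That test thus does not speak to changes of their size. Values identical in a pair of libraries made up at most 0.943% of tested genes, and all libraries were kept. Other steps used Matplotlib 3.10.9, Python 3.11.15, NumPy 2.4.6, SciPy 1.17.1 and pandas 2.3.3.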

Additional observations from a re-analysis of the deposited data

Results flagged for a closer look

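Of 34 groups of 5 libraries examined, those of the 16 tested peroxins and Pparg, 2 held a library far from the other 4, where chance gives about 1 in 20. Pex3 was 6.82 FPKM in CMC library 1, against 10.25 to 10.8 FPKM in the other CMC libraries. Pex19 was 42.66 FPKM in DEHP library 5, against 35.07 to 36.47 FPKM in the other DEHP libraries.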

How the results depend on the processing

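In the fits that each left out 1 library, Pex11a, Pex16 and Pex19 kept their calls, 3 or 4 of the 9 peroxins were higher and 0 lower, and 747 to 1011 genes were higher and 202 to 263 lower. Fewer libraries enter those fits. Adding the first principal component of the clock genes gave 648 higher and 171 lower genes, though that component partly followed the groups. With median-of-ratios scaling the counts were 639 and 445, and with quantile normalization 611 and 546. The cause of these shifts was not tested. An exact permutation test per gene called 0 genes higher or lower, and 0 of the 9 peroxins, since its smallest adjusted p over all genes was 0.0742, while 2681 genes had an unadjusted p below 0.05 and limma called 1295. Pex11g passed with a filter at 2 FPKM (adjusted p = 0.0408) and with the replicate number as a block (adjusted p = 0.0298), while its adjusted p rose to 0.184 with median-of-ratios scaling, 0.259 with quantile normalization and 0.335 with the clock component. With that block 4 of the 9 peroxins were higher, and 816 genes were higher and 229 lower. Libraries of the same number did not deviate together, with correlations of -0.07 to 0.05, against -0.18 to 0.19 for different numbers. Of the 10 libraries, 0 correlated best with their own number. These values show no pairing by number, but a weak pairing or one of few genes might not show in them. The pairwise difference of Pex13 and Pex14 was 0.0017 with quantile normalization, 0.0238 without CMC library 2 and DEHP library 5, and -0.148 to 0.0658 with 1 library left out, and it passed in none of these. The other pairs reported kept their sign with 1 library left out, and none passed after adjustment. The summed FPKM per library differed by 150 between the groups and by -8131 to 6661 with 1 library left out. The sign of Pex5 with quantile normalization was negative (-0.0146), as was that of Pex13 with it (-0.0276) and with median-of-ratios scaling (-0.0152), and that of Pex14 with quantile normalization (-0.0293). Array weights, pseudocounts of 0.1 and 1, no filter, plain limma variances, and rescaling without the 10 most abundant genes kept the 3 calls and added none. Depth is unknown, so counting error cannot be given for any value.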
